A study of Mus musculus with 6 samples.

Results

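Insulin signalling and glucose transport are represented by 10 genes chosen by name and not by a measured value, though with earlier results of these data known. They are the receptors Insr and Igf1r, the adaptors Irs1 and Irs2, Pik3r1, Akt2, Tbc1d4, Foxo1, and the glucose transporters Slc2a1 and Slc2a4. All 10 were matched in the GENCODE annotation of mm10, out of 21938 protein-coding genes. Open chromatin around them was read from ATAC-seq peak lists of 6 libraries of cultured mouse adipocytes, 2 beige, 2 white and 2 brown. Peaks of the 6 lists that shared at least 1 bp were joined into 194610 regions, and the 330 regions with a summit from 50 kb before to 50 kb after a gene were taken as near it. A promoter peak is one with a summit within 1 kb of a transcription start site.

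The cells came from the stromal vascular fraction (SVF), the non-adipocyte cells of fat tissue that include adipocyte progenitors, of wild type C57 male mice at 3 to 4 weeks of age. Beige and white cultures were started from subcutaneous fat and brown cultures from brown adipose tissue, and all were harvested after 7 days of differentiation. Beige and brown cultures received 5 µM dexamethasone, a glucocorticoid, 0.5 mM isobutyl methylxanthine (IBMX), 1 nM T3, a thyroid hormone, 1 µM rosiglitazone, a PPARG agonist, and insulin, and after 48 h insulin, T3 and rosiglitazone. White cultures received 1 µM dexamethasone, 0.5 mM IBMX and insulin, and after 48 h insulin alone. Every culture was therefore exposed to insulin, the ligand of this pathway, at 5 µg/ml in the labels, while the study's methods give other concentrations that are unequal between beige and white medium. Dexamethasone, T3 and rosiglitazone changed together between beige and white, and their effects cannot be told apart. Depot differed between brown and the other cultures, and brown shared its medium with beige. The study describes its ATAC-seq replicates as biological, without saying how many mice stood behind a library. Its text covers the beige and white libraries and does not describe the brown ones, which were also deposited under a separate run of accession numbers, so a difference in preparation and one between brown and the other cultures cannot be told apart.

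Insulin binding to its receptor leads to phosphorylation of the insulin receptor substrates, which recruit phosphoinositide 3-kinase, and this in turn activates the kinase AKT. In fat cells AKT phosphorylates the Rab GTPase-activating protein TBC1D4 (AS160), which lets vesicles carrying the glucose transporter GLUT4 move to the plasma membrane. AKT also keeps the transcription factor FOXO1 out of the nucleus. GLUT1 carries glucose independently of this step in many cell types, and brown fat is known for high insulin-stimulated glucose uptake.

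The lists held 109143 to 127490 peaks, and 178 to 240 of these lay near the 10 genes. Read depth is not in the lists. Of these 6 libraries the study's reporting summary covers the beige and white ones. It gives fewer mapped reads, and a lower mapped share, in both beige libraries than in both white ones. Mapping thus differed along with culture, and its effect on the peak calls was not tested. Each peak carries a fold enrichment over the local background of its own library, so peaks were compared by percentile, the rank of the fold within the list with 100 at the top. The labelled cell type was checked at promoters of marker genes, which show open chromatin and not transcripts. All 6 libraries had a promoter peak at 9 of 10 adipocyte markers (not at Lep) and 6 of 8 brown adipocyte markers (not at Ucp1 and Zic1). The same held for 4 of 6 progenitor, 2 of 7 macrophage and 3 of 5 endothelial markers, and for 62% of all genes. Median percentiles of the markers with a peak ran from 53.8 to 76.6 for the adipocyte list and 47.8 to 75.8 for the progenitor list. The endothelial medians, 71.8 to 85.6, were above the adipocyte ones in each library. The uncoupling protein gene Ucp1 had a promoter peak in the brown libraries alone, at percentiles 9.1 and 4.2. Zic1 had one in both brown libraries (43.2 and 63.8) and in beige replicate 2 (14.9). Of the 6 brown markers with a peak in every library, both brown percentiles exceeded both white ones at 3 and both beige ones at 4. Of all genes with a promoter peak in every library, 34.9% and 33.4% had these orders. Beige exceeded white at 2 of the 6 markers (28.6% of genes) and white exceeded beige at 2 (19.8%). These markers thus did not separate beige from white. White exceeded brown at 1, Prdm16, at 48.0 and 31.1 in white, 15.2 and 11.3 in brown and 4.0 and 2.8 in beige. The markers of other cells were split. Of the macrophage list Ptprc, Csf1r, Itgam and Spi1 had no promoter peak in any library, as 28.6% of all genes, Lyz2 had one in brown replicate 1, and Adgre1 and Cd68 had one in all 6, at percentiles of 21.7 to 59.8 and 0.7 to 45.9. Of the endothelial list Cdh5 and Emcn had none, and Pecam1, Kdr and Tek had one in all 6, at 65.6 to 89.8. The part of other cells in the results was not tested.

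All 10 genes had a promoter peak in each of the 6 libraries, against 62% of 21851 protein-coding genes with a coding transcript in the basic annotation. No gene of the 10 gained or lost its promoter peak between cultures, a pattern seen in 1.89% of all genes. Differences at promoters were therefore differences in rank. Both brown percentiles lay above both beige ones at 8 of 10 promoters (background 33.4% of genes with a promoter peak in every library), the exceptions being Slc2a4 and Tbc1d4. Both brown values exceeded both white values at 3 promoters, Irs1, Slc2a1 and Foxo1 (34.9%). White exceeded brown at Slc2a4 alone (14.9%). None had both beige values above both white (28.6%) or both brown ones (17.3%), and none had both white values above both beige (19.8%). Ranked by the -log10 q value in place of the fold, the count of brown above beige fell to 3 promoters, again Irs1, Slc2a1 and Foxo1, against 15.3% of genes, so the brown shift depends on the measure used for ranking. That ranking put beige above white at 4 promoters (Irs2, Slc2a1, Foxo1 and Igf1r, against 35.8% of genes) and above brown at 3 (Slc2a4, Tbc1d4 and Igf1r, against 34.3%). White replicate 2 gave a lower promoter percentile than white replicate 1 at 9 of 10 genes. Over all genes with a promoter peak in every library it also had the lowest median, 85.8. Without white replicate 2 the remaining white library exceeded both beige libraries at 7 promoters and both brown ones at 6, and without white replicate 1 the other white library lay below both brown ones at 9 and below both beige ones at 6. No share of all genes is given for these comparisons with 1 white library, so they are not a result about the 10 genes. With 2 libraries against 2 an exact permutation test allows no two-sided p below 0.333, so no test was made.

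**Figure D1:**
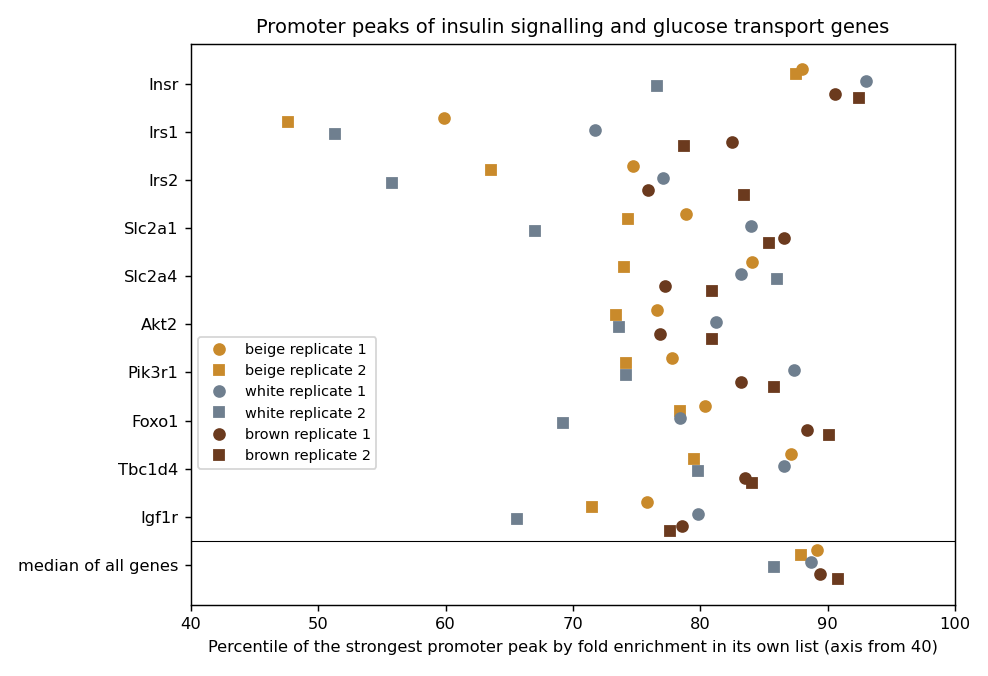
Percentile by fold enrichment of the strongest promoter peak (x axis, from 40 to 100) for 10 genes and, in the bottom row, the median of all genes with a promoter peak in every library. Each point is 1 library, coloured by culture. Brown points lie right of both beige points at 8 genes, and Irs1 has the lowest beige values, 59.9 and 47.6.

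By fold the median of the 10 promoters lay below that of all genes in each library, although single promoters did not, such as Insr at 93.0 in white replicate 1 and at 90.6 and 92.5 in brown. The median percentile of the 10 was 78.3 and 74.1 in beige, 82.2 and 71.4 in white, and 82.8 and 83.7 in brown (replicates 1 and 2), where the median over all genes with a promoter peak in every library ran from 85.8 to 90.8. In percentiles by -log10 q the medians of the 10 genes ran from 89.5 to 94.6, beside 91.6 to 94.3 for all genes. Their promoter peaks were wide, with medians of 856 to 1096 bp against 681 to 854 bp for all genes.

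Over whole loci the genes resembled the genome in how often regions differed between cultures. Of the 330 regions 108 had a peak in all 6 libraries (32.7%, background 30.2%) and 106 in only 1 (32.1%, over all regions 37.2%). Regions with a peak in both libraries of one culture and none of another numbered 41, beside 12.5% of all regions. There were 15 for beige and not white (4.55% against 4.5%) and 4 for white and not beige (1.21% against 1.98%). Beige and not brown had 19 (5.76% against 4.8%), and brown and not beige 4 (1.21% against 1.56%). White and not brown had 14 (4.24% against 3.48%), and brown and not white 7 (2.12% against 2.94%). These shares lay near the background, and the 3 cultures enter several of these counts with the same libraries. Among the 41 regions 25 were intronic, 11 intergenic and 2 in a promoter of the 10 genes.

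**Figure D2:**
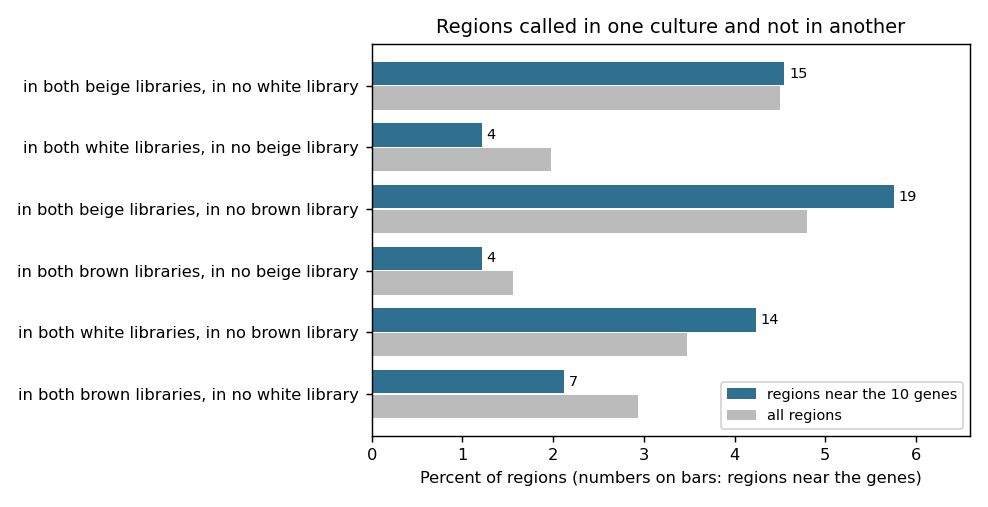
Percent of regions (x axis) with a peak in both libraries of one culture and in no library of another, for the 330 regions near the 10 genes and for all 194610 regions. Paired bars are of similar length, and the numbers give the regions near the genes, from 4 to 19.

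In the 108 shared regions rank differed between cultures about as often as elsewhere in the comparisons where beige or white was the higher, and more often where brown was. Both percentiles were higher in beige than in white in 26 (24.1%, background 25.8%) and the reverse held in 24 (22.2% against 22.1%). Beige exceeded brown in 27 (25% against 27.3%) and white exceeded brown in 27 (25% against 23.9%). Brown exceeded beige in 35 (32.4% against 24%) and white in 30 (27.8% against 22.7%). Ranked by -log10 q, brown exceeded beige in 21 (19.4%), beside 18.4% of all shared regions under that ranking, and white in 30 (27.8% against 21.2%). A gap of more than 20 points, a limit chosen after values were seen, was found in 13 of the 108 regions, where 9.75% of all shared regions had one.

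At a q value under 0.00001 in both libraries that held the peak, 23 of the 41 regions remained. Over the whole genome 12790 of the 24423 regions with such a pattern remained, which is 6.57% of all 194610 regions. The 23 fell near 9 of the 10 genes, all but Irs2. They are plotted by gene and taken up below with the gene they lie near. Nearness to a gene does not show that a region acts on it.

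**Figure D3:**
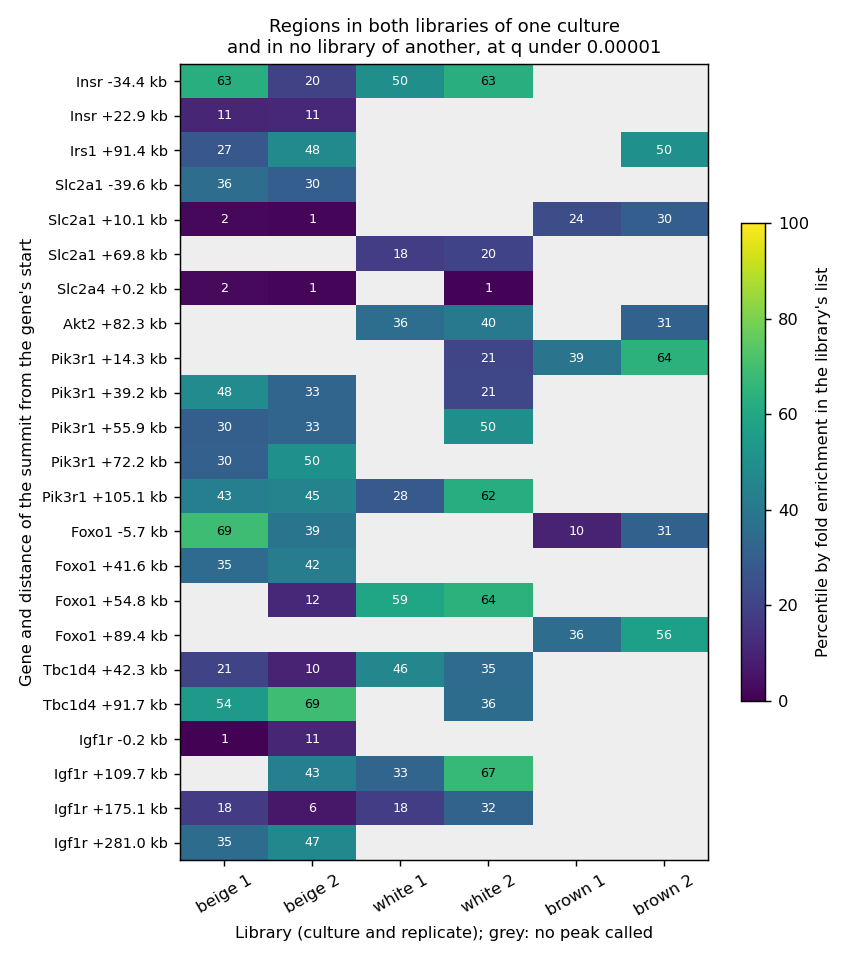
Percentile by fold enrichment (colour, and number in each cell) of 23 regions in the 6 libraries. Rows give the gene and the distance of the summit from its start, grey cells have no called peak, and most rows are filled in the 2 beige libraries and grey in brown.

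The sequences printed with the genes are of mm10 and show the bases under regions that differed between cultures, 100 bases to each side of the strongest summit, or the 200 bases before a gene's first start site. Capitals mark matches on either strand to short motifs, which describe letters and not binding. The motifs with a match in them were the C/EBP motif (TTGC, 2 of any base, AA), AP-1 (TGA, 1 of any base, TCA), TEAD (GGAATG) and ETS (CCGGAAG). Others were the GC box of SP and KLF factors (GGGCGG), the CTCF core (CCA, 2 of any base, AGGNGG) and the MEF2 consensus. Motifs of nuclear receptors, EBF, NFI, forkhead factors and the cAMP response were also searched and had no match in these sequences. The CTCF core was added after the Tbc1d4 sequence had been seen.

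Insr, the insulin receptor gene (ENSMUSG00000005534.10, chr8:3122061-3279617, minus strand), had 29 regions, and no other protein-coding gene starts in its window. The Insr promoter peak ranked highest of the 10 genes on average, at percentiles 88.0 and 87.5 in beige, 93.0 and 76.6 in white and 90.6 and 92.5 in brown. Both brown values lay above both beige ones by a few points, and the white values enclosed all others. Its strongest distal region, 58.4 kb into the gene in an intron, stood at 90.9 to 97.4 in all 6 libraries. A weak intronic region at 22.9 kb was called in beige alone, at percentiles 10.7 and 11.3. An intergenic region 34.4 kb before the gene had peaks in beige (62.8 and 19.7) and white (49.7 and 62.9), while the nearest brown summits were more than 10 kb away. The sequence of this region, shared by the subcutaneous cultures, holds none of the motifs.
Insr, 34.4 kb before the start (chr8:3313922-3314122, plus strand): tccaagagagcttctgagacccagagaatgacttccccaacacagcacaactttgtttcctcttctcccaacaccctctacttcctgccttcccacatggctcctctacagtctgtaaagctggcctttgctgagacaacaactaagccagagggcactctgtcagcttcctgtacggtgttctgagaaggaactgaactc

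Igf1r, the receptor for insulin-like growth factor 1 and close relative of the insulin receptor (ENSMUSG00000005533.10, chr7:67952827-68233668, plus strand), had the most regions, 63, over the longest gene. The Igf1r promoter peak ranked at percentiles 75.8 and 71.5 in beige, 79.8 and 65.6 in white and 78.6 and 77.6 in brown. Brown lay above beige, and white spanned the range. This peak centred close to 1 kb before the start site, and a second, small region 170 bp before the start was called in both beige libraries alone, at percentiles 0.6 and 10.7 and -log10 q values of 5.92 and 18.8. The nearest summits of the other 4 libraries were 358 to 516 bp away. The 200 bases before the start, which hold that beige summit, carry a GC box at 2 places and end in a run of thymines.
Igf1r, before the start (chr7:67952627-67952826, plus strand): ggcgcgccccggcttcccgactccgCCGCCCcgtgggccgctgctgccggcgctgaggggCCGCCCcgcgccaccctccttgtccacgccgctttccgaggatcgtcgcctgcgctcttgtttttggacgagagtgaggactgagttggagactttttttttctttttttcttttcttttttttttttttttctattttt
An intronic region at 109.7 kb had a peak in both white libraries (32.6 and 66.9) and in beige replicate 2 (43.1), but not in brown. Its sequence holds a C/EBP match and TEAD matches, one of which overlaps a GC box.
Igf1r, 109.7 kb after the start (chr7:68062397-68062597, plus strand): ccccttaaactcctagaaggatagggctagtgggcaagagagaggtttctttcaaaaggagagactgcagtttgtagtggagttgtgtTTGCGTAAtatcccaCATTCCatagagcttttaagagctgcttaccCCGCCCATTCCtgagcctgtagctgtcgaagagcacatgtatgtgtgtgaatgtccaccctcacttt
Farther on, an intronic region at 175.1 kb was open in beige (17.6 and 6.4) and white (18.3 and 31.9) and not in brown, and an intergenic one at 281.0 kb in beige alone (35.2 and 46.8). At 113.2 kb all libraries had a peak, and beige (80.9 and 76.5) stood above white (22.5 and 53.9) with brown between (66.2 and 69.4). The strongest distal region, at 69.1 kb in an intron, ranked at 87.8 to 98 everywhere.

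Irs1, an adaptor that links the receptor to phosphoinositide 3-kinase (ENSMUSG00000055980.2, chr1:82233101-82291416, minus strand), had the fewest regions, 16. The Irs1 promoter peak differed most between cultures among the strongest promoter peaks of the 10 genes, with percentiles of 59.9 and 47.6 in beige, 71.7 and 51.3 in white and 82.5 and 78.7 in brown. Brown lay above every other library, and beige and white overlapped. The means were 53.7 ± 8.7, 61.5 ± 14.4 and 80.6 ± 2.7 (SD, n = 2 each). In percentiles by -log10 q brown was again highest, at 94.1 and 92.1 against 83.4 to 89.5 in the other 4. The region 9.4 kb into the gene followed the same order, at 7.6 and 2.2 in beige, 20.7 and 17.3 in white and 37.6 and 26.9 in brown. The 200 bases before the Irs1 start, where all summits of the strongest promoter peak lay, hold none of the motifs.
Irs1, before the start (chr1:82291417-82291616, minus strand): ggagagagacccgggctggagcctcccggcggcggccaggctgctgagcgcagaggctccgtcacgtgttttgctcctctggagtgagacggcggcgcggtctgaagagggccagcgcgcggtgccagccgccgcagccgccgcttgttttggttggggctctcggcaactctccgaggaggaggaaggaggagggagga
Among all distal regions outside promoters, the one with the highest mean rank lay 101.6 kb after the Irs1 start, beyond the gene's end, at 95.6 to 99.9 in all libraries. At 91.4 kb an intergenic region was called in beige (27.0 and 47.8) and brown replicate 2 (50.2) and not in white. It holds a C/EBP match and a MEF2 match.
Irs1, 91.4 kb after the start (chr1:82199954-82200154, plus strand): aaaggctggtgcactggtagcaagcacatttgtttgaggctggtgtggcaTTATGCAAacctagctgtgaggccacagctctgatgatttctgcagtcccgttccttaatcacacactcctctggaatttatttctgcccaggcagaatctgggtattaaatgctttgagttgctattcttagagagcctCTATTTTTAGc

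Irs2, the second adaptor (ENSMUSG00000038894.7, chr8:10984681-11008458, minus strand), had 30 regions in a window of 124 kb, 24.2 per 100 kb, where the median was 17.9 for the 10 genes and 11.5 for all protein-coding genes. The Irs2 promoter peak ranked at percentiles 74.7 and 63.6 in beige, 77.1 and 55.8 in white and 75.9 and 83.4 in brown. Brown cleared beige by little, and the white values lay far apart. In 2 weak regions both white libraries and beige replicate 2 had a peak and brown had none. They lay at 46.3 kb (32.5 and 0.7 in white) and in an intron at 14.4 kb (3.1 and 0.8). The widest rank gaps lay in shared regions beyond the gene's end. At 30.6 kb white (45.7 and 50.5) stood far above beige (1.8 and 7.7), with brown split at 3.6 and 36.2. At 27.3 kb beige was lowest too (4.7 and 4.3), below white (24.9 and 66.3) and brown (42.6 and 62.1). The order turned at 55.6 kb, where beige (45.3 and 61.1) and brown (50.5 and 59.1) exceeded white (28.2 and 16.9). A region at 62.2 kb was strong everywhere, at 87.0 to 96.5.

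Pik3r1, which encodes the p85-alpha regulatory subunit of phosphoinositide 3-kinase (ENSMUSG00000041417.15, chr13:101680563-101768217, minus strand), had 44 regions and the most that met the stricter threshold, 5. The Pik3r1 promoter peak ranked at percentiles 77.8 and 74.2 in beige, 87.4 and 74.2 in white and 83.2 and 85.8 in brown. Brown lay above beige, and white overlapped both. Of the 5 regions 4 were open in both beige libraries and in no brown one. The region at 72.2 kb, in an intron, was called in beige alone, at percentiles 30.5 and 50.3 and -log10 q values of 10.6 and 21.7. The other intronic pair, at 39.2 kb (48.2 and 32.7 in beige) and 55.9 kb (30.1 and 32.6), also had a peak in white replicate 2, at 21.1 and 49.7. Nearest brown summits lay 487 and 517 bp from the first of these. The intergenic region at 105.1 kb was open in beige (43.0 and 44.6) and white (27.8 and 62.2). Against these, the intronic region at 14.3 kb was open in brown (38.6 and 64.3) and white replicate 2 (21) and not in beige. The sequences at 105.1 kb, open in the subcutaneous cultures, and at 14.3 kb, open in brown, are given for contrast, and the second holds an AP-1 match.
Pik3r1, 105.1 kb after the start (chr13:101663032-101663232, plus strand): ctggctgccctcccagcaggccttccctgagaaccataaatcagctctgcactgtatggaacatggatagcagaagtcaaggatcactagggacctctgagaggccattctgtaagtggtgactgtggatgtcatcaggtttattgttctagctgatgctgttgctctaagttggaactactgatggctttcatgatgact
Pik3r1, 14.3 kb after the start (chr13:101753826-101754026, plus strand): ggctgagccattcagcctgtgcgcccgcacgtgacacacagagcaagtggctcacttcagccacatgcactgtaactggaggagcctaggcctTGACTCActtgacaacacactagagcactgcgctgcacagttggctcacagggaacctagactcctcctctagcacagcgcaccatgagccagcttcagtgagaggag

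Akt2, the AKT kinase most tied to insulin action in fat (ENSMUSG00000004056.15, chr7:27591552-27640826, plus strand), had 22 regions and 5 start sites. The Akt2 promoter peak, taken as the strongest at any start site, ranked at percentiles 76.6 and 73.4 in beige, 81.2 and 73.6 in white and 76.8 and 80.9 in brown. Which start site held it differed. In both brown libraries it was at the first start site, and in the other 4 at an internal start about 14 kb downstream. At the first start site brown (76.8 and 80.9) exceeded beige (72.9 and 61.5) and white (73.2 and 72.7). At the internal region 14179 bp downstream brown (68.4 and 71.2) was below beige (76.6 and 73.4) and white (81.2 and 73.6). A further promoter region 16.3 kb downstream gave the widest rank gap near the 10 genes, at 52.1 and 50.7 in beige and 62.4 and 66.5 in brown against 19.1 and 13.1 in white. The intronic region at 33.6 kb had a like order, at 46.1 and 62.8 in beige and 54.3 and 57.0 in brown against 17.1 and 18.3 in white. Both regions were thus higher in beige and brown, which shared a medium, than in white, and the sequence of the intronic one, chosen after its values were seen, holds none of the motifs.
Akt2, 33.6 kb after the start (chr7:27625050-27625250, plus strand): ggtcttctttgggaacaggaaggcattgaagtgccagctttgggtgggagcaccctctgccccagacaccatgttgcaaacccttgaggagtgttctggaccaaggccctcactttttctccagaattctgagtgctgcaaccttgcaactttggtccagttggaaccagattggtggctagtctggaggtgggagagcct
Beyond the gene, at 59.6 kb, beige (73.1 and 75.9) stood above brown (21.5 and 42.5) and white (10.8 and 58.8). A region 82.3 kb downstream, at the promoter of Map3k10, was called in white (36.1 and 40.3) and brown replicate 2 (30.9) and not in beige. The nearest beige summits lay 810 and 806 bp from it. The promoter itself was open in every culture. Its stronger region, 83.1 kb downstream, ranked at 98.5 and 99.3 in beige, 97.1 and 96.2 in white and 97.9 and 97.5 in brown. The strongest distal region, 48.7 kb before the gene in an exon of Pld3, ranked at 82.0 to 93.0.

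Tbc1d4, the AKT substrate AS160 (ENSMUSG00000033083.16, chr14:101442360-101609191, minus strand), had 39 regions, 14 of them in all libraries. The Tbc1d4 promoter peak was the least different of the 10 between cultures, at percentiles 87.1 and 79.5 in beige, 86.6 and 79.8 in white and 83.5 and 84.1 in brown, with means of 83.3, 83.2 and 83.8. Contrasts lay inside the gene, and most set brown below a subcutaneous culture. At 34.6 kb white (73.0 and 73.6) and beige (58.3 and 67.8) exceeded brown (26.3 and 35.3). At 148.3 kb beige (94.3 and 86.5) exceeded brown (63.1 and 52.7), with white at 47.3 and 80.2. At 99.3 kb white (80.0 and 79.6) exceeded beige (21.9 and 53.8), with brown at 70.4 and 65.1. A region at 42.3 kb was open in beige (20.6 and 9.7) and white (46.4 and 35.0) and not in brown. One at 91.7 kb was open in beige (53.8 and 68.8, with -log10 q values of 11.7 and 27.6) and in white replicate 2 (35.5) and not in brown, whose nearest summits lay 496 and 475 bp away. Its sequence holds a match to the CTCF core near the summit.
Tbc1d4, 91.7 kb after the start (chr14:101517437-101517637, plus strand): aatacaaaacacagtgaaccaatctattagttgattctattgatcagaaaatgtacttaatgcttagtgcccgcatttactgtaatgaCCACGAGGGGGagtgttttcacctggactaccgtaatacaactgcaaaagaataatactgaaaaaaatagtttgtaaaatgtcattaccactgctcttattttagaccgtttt

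Foxo1, the transcription factor restrained by AKT (ENSMUSG00000044167.6, chr3:52268336-52353221, plus strand), had 39 regions, 17 of them in a single library. The Foxo1 promoter peak ranked at percentiles 80.4 and 78.4 in beige, 78.4 and 69.2 in white and 88.4 and 90.1 in brown. Brown lay above all other libraries, with means of 79.4 ± 1.5, 73.8 ± 6.5 and 89.2 ± 1.3 (SD, n = 2 each). In percentiles by -log10 q brown (96.4 and 96.0) was above beige (95.1 and 95.8) by under 1 point. The gene also held the region with the highest -log10 q among the 23, an intergenic one 5.7 kb before its start. It had values of 35.1 and 17.8 in beige and 5.17 and 7.55 in brown, at percentiles 69.0, 39.0, 10.1 and 31.1, and no peak in white, where the nearest summits were 3882 and 3901 bp away. The region was thus open in both cultures that shared a medium, and its sequence, chosen after its values were seen, holds a CTCF core match.
Foxo1, 5.7 kb before the start (chr3:52262508-52262708, plus strand): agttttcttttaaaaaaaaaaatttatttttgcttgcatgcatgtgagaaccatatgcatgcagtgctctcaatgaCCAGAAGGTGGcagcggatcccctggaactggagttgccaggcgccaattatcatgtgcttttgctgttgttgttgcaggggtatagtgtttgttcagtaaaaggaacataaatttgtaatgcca
Other Foxo1 regions went different ways. The intronic region at 41.6 kb was open in beige alone (34.8 and 42.3). The one at 54.8 kb was open in white (58.9 and 64.4) and beige replicate 2 (11.6) and not in brown, and the one at 89.4 kb, beyond the gene's end, in brown alone (35.9 and 56.3). The last has TEAD matches, one of which overlaps an ETS match, and the white one none of the motifs.
Foxo1, 54.8 kb after the start (chr3:52323060-52323260, plus strand): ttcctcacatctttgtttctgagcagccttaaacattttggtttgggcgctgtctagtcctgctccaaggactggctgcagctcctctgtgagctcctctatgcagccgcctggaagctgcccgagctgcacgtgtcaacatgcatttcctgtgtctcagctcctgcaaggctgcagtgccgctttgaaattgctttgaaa
Foxo1, 89.4 kb after the start (chr3:52357641-52357841, plus strand): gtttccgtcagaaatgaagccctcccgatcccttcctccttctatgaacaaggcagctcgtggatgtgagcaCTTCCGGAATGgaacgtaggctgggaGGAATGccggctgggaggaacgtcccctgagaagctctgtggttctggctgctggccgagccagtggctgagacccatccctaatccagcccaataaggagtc
Of the shared regions, one 24.5 kb before the gene was higher in beige (81.5 and 76.8) and white (78.2 and 72.1) than in brown (50.6 and 54.0), and one at 133.4 kb was nearly level, at 83.2 to 86.5.

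Slc2a1, which encodes the ubiquitous glucose transporter GLUT1 (ENSMUSG00000028645.11, chr4:119108711-119137983, plus strand), had 25 regions, 13 of them in all libraries. The Slc2a1 promoter peak ranked at percentiles 78.9 and 74.3 in beige, 84.0 and 67.0 in white and 86.6 and 85.4 in brown. Brown lay above the other 4 libraries, with a mean of 86.0 ± 0.87 against 76.6 ± 3.3 in beige and 75.5 ± 12.0 in white (SD, n = 2 each). In percentiles by -log10 q brown (95.3 and 94.5) was above beige (94.4 and 93.8) by as little as 0.1 points between the nearest libraries. An intronic region at 10.1 kb was open in brown, at percentiles 23.8 and 29.7, and at the foot of the list in beige, at 2.0 and 1.2, and had no peak in white. Its -log10 q values were 13.7 and 11.3 in brown and 4.05 and 3.6 in beige. A region 39.6 kb before the gene was open in beige alone (35.6 and 29.7) and one at 69.8 kb, in an exon of Ermap, in white alone (18.1 and 20.2). The strongest distal region of the gene, in its own intron at 12.7 kb, ranked at 81.9 and 78.0 in beige, 73.3 and 77.1 in white and 87.0 and 87.5 in brown, with brown highest as at the promoter.

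Slc2a4, which encodes the insulin-responsive transporter GLUT4 (ENSMUSG00000018566.14, chr11:69942539-69948188, minus strand), lies in a dense stretch where 11 other protein-coding genes start in its window, so most of its 23 regions are as near to another gene. The Slc2a4 promoter peak ranked at percentiles 84.1 and 74.0 in beige, 83.2 and 86.0 in white and 77.2 and 80.9 in brown. It was the only promoter of the 10 with both white values above both brown ones. That peak held summits at several places, and a look at each, made after the values were seen, showed a difference within it. The proximal summit, at -98 to -69 bp from the gene's start, had a fold enrichment of 8.81 and 7.83 in beige, 4.77 and 4.57 in white and 8.22 and 7.81 in brown. The upstream one, at -848 to -805 bp, had 9.71 and 7.33, 7.25 and 6.92, and 8.2 and 6.23 in the same order. Within each library the proximal fold was thus 0.907 and 1.07 times the upstream one in beige and 1 and 1.25 times in brown, but 0.659 and 0.661 times in white. The white libraries lay below the other 4 in this ratio, which is taken within a library, and only in white were the stretches called as separate peaks. The rank in the comparison above came from the upstream summit in white and beige replicate 1 and from the proximal one in the other libraries. A small region 244 bp into the gene was called in both beige libraries (2.5 and 1.4) and white replicate 2 (0.8) and in no brown one. The 200 bases before the start hold the proximal summit and a GC box.
Slc2a4, before the start (chr11:69948189-69948388, minus strand): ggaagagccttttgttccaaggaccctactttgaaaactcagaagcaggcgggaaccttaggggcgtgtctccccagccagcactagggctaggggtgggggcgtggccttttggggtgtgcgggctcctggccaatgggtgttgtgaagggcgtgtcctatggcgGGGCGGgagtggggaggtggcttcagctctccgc
Among shared regions in the window, one 34.2 kb from the Slc2a4 start, at the promoter of Gps2, was higher in beige (91.9 and 84.0) and brown (90.2 and 77.3) than in white (59.0 and 61.7). The strongest distal one, at 13.8 kb, ranked at 61.2 to 77.3.

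**Figure D4:**
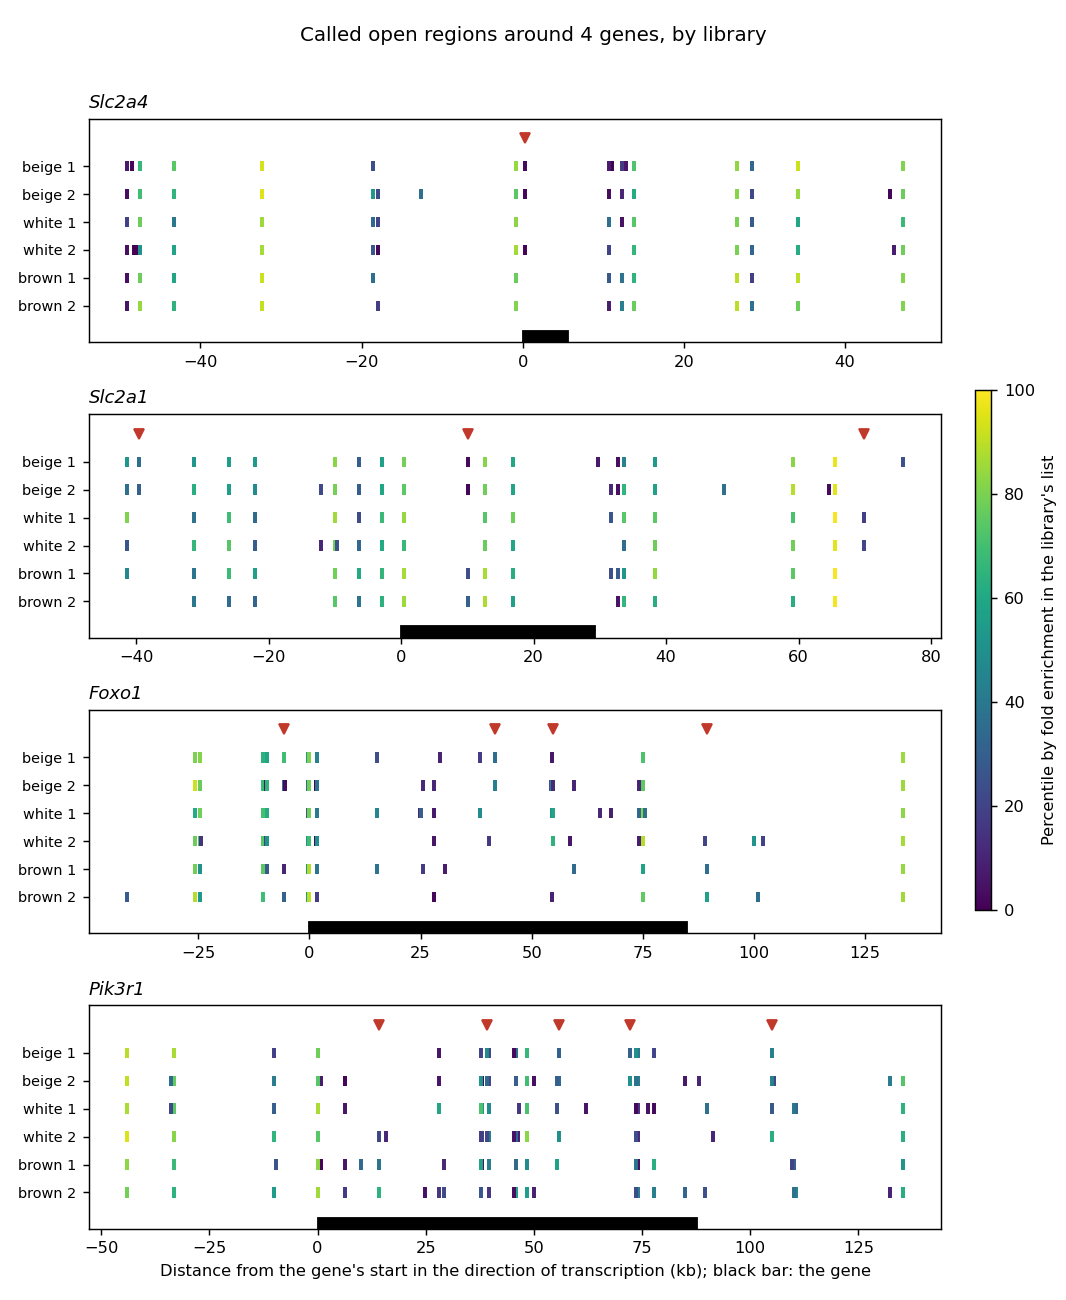
Called regions around Slc2a4, Slc2a1, Foxo1 and Pik3r1, by distance from the gene's start in kb (x axis) and by library (rows), coloured by percentile. Red triangles mark regions open in both libraries of one culture and in none of another at a q value under 0.00001, and black bars mark the gene. Many marks line up over all 6 rows and others stand in a single one, and Pik3r1 has 5 triangles.

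A wider list of 63 other genes of insulin and glucose handling was counted at promoters. Of these 61 had a promoter peak in all 6 libraries, none lacked one in every library and none had it in both libraries of one culture and in neither of another. The exceptions, the growth factor gene Igf2 and the glucose transporter gene Slc2a3, each lacked a peak in white replicate 1 only. Order was counted among the 61 with a peak in every library. Both brown percentiles exceeded both beige ones at 30 and both white ones at 30, beside the 33.4% and 34.9% of all genes given above. Beige exceeded white at 19 (all genes 28.6%), white exceeded beige at 8 (19.8%), and brown was exceeded by beige at 4 (17.3%) and by white at 4 (14.9%). The median percentile of this list was 81.8 and 79.7 in beige, 83.3 and 74.7 in white and 84.1 and 88.5 in brown, with white replicate 2 lowest here too.

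Base composition and motifs are given as descriptions, with no test. From 250 bases before to 50 after the start, GC content ran from 50% at Akt2 to 80.7% at Irs2, against a median of 55.7% over all promoters. A GC box was present in 9 of the 10 promoters, all but Insr, against 44.9% of all promoters of the same length. In windows of 201 bases at the summits, median GC was 50.2% both near the 10 genes and over all regions. The C/EBP motif was found in 13.6% of the 330 windows against 12.6% of all, AP-1 in 18.5% against 21.2%, TEAD in 10.6% against 14.1%, ETS in 3.03% against 2.35%, the GC box in 14.8% against 10.6%, the CTCF core in 2.42% against 3.94% and the MEF2 consensus in 0.909% against 0.438%. The forkhead motif (GTAAACA), which FOXO1 itself can bind, was found in 3.33% against 2.36%. The direct repeat with a spacer of 1 base bound by PPARG and RXR (AGGNCA in each arm) was found in 1 window, 0.303% against 0.455%. The same repeat with a spacer of 4 bases was found in 0% against 0.523%. The glucocorticoid element (GNACA, 3 of any base, TGTNC) was in 0.606% against 0.621% and the cAMP response element (TGACGTCA) in 0.303% against 0.649%. EBF (TCCC, 2 of any base, GGGA) was in 1.52% against 1.39% and NFI (TTGGC, 5 of any base, GCCAA) in 0% against 0.0678%.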

How the data were processed

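The authors trimmed reads, aligned them to mm10 with BWA and called peaks in each library with MACS2, with a q threshold of 0.05. The deposited lists give for each summit a fold enrichment, a ratio of the pileup over the local background, and a -log10 q value. Both are scaled within the library, so levels of different libraries are not on one scale. Counts between cultures used peak calls or percentiles, and the Slc2a4 summits a ratio within each library. Fold and -log10 q values printed for single regions describe each library by itself. Several summits can share an interval, and each interval entered once, represented by its summit of highest -log10 q. Precision rests on 2 libraries per culture, grouped by the labels. Start sites were those of coding transcripts in GENCODE M21 (basic set). Intervals sharing 1 bp were merged; those that only touch were not. Peaks were ranked, merged and counted in Python 3.11.15 (numpy 2.4.6, pandas 2.3.3), with figures from matplotlib 3.10.9, and the counting was tested on simulated lists.

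The genes, the wider list, the markers and most motifs were chosen with earlier results of these data known. Named were all 10 genes, their promoter and strongest distal region, and each region open in both libraries of one culture and neither of another at q under 0.00001. Sequences were taken for the 8 distal regions of that kind with the highest mean percentile, at most 1 per gene and pattern, and for promoters that a result turned on. Regions with rank gaps, the Slc2a4 summits, and the Akt2 and Foxo1 (5.7 kb) sequences were chosen after their values were seen. RNA and ChIP data of the study were not used here.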

Additional observations from a re-analysis of the deposited data

How the results depend on the processing

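No paired analysis was possible because nothing in the labels ties libraries of equal replicate number to a shared animal, day or preparation, and no fitted test exists that a block could enter. With 2 libraries per culture and no read counts in the lists, a missing peak is a value under the authors' threshold and not closed chromatin, and a percentile carries no counting error. Of the values compared under other settings, leaving out those of single genes, 262 moved little and 89 moved. Those that moved and answer a comparison follow, and the cause was not tested. At q under 0.01, promoters with beige above white rose from 0 to 1, and at q under 0.00001 to 1, where regions with white and not brown were 8, shared regions with white above beige 13 and white above brown 17, and the median promoter percentiles 70.7 (beige), 69.1 (white) and 78.3 (brown). With equally long lists, white and not beige gave 8 regions and the beige median was 73.1. Windows of 10 kb, which hold fewer regions by construction, gave 2 for white and not beige, 67 in all libraries, and 12 (beige above white), 14 (beige above brown), 23 (brown above beige) and 16 (brown above white) by rank; windows of 100 kb gave 7, and 47, 42 and 51 for beige above white, beige above brown and brown above white. Requiring an overlap of 0.5 of both peaks gave 7 regions for white and not beige and 8 with a gap over 20 points. Within 250 bp of a start site only 6 genes had a promoter peak in every library, with brown above beige at 5 and white above brown at 0. No share over all genes or regions is given for the settings up to this point, so their counts are not a result about the 10 genes. Ranked by -log10 q, the medians were 94.0, 91.3 and 93.1, promoters numbered 4 (beige above white), 3 (beige above brown), 3 (brown above beige) and 5 (brown above white), beside 35.8%, 34.3%, 15.3% and 29.1% of all genes, and shared regions with brown above beige 21. Ranked among promoter peaks only, a setting chosen after seeing the data, the medians were 31.8, 34.7 and 38.3. Promoters then numbered 1 (beige above white, 24.8% of all genes), 2 (white above beige, 25.4%) and 2 (white above brown, 23.5%). Under this ranking brown stayed above beige at Insr, Irs1, Irs2, Slc2a1, Pik3r1 and Foxo1 and no longer at Akt2 and Igf1r. Over all genes 27.1% had that order.

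Leaving out 1 library at a time, which leaves 1 library to stand for a culture, the regions with a pattern ranged from 15 to 49 (beige and not white), 19 to 59 (beige and not brown), 4 to 31 (white and not beige), 14 to 52 (white and not brown), 4 to 23 (brown and not beige), 7 to 27 (brown and not white) and 73 to 87 (any). By rank, shared regions ranged from 26 to 46 (beige above white), 27 to 41 (beige above brown), 24 to 45 (white above beige), 28 to 44 (white above brown), 36 to 53 (brown above beige), 30 to 54 (brown above white) and 19 to 29 (gap over 20 points). Promoters ranged from 0 to 6, 0 to 2, 0 to 7, 1 to 6, 8 to 10 and 3 to 9 in the same order of comparisons. Median promoter percentiles ranged from 74.1 to 78.3 in beige, 71.4 to 82.2 in white and 82.8 to 83.7 in brown. Shares over all genes or regions are not given for these settings.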
